A study of Homo sapiens with 6 samples.

Results

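The 9 genes described here belong to the NRF2 antioxidant response: NFE2L2, which encodes NRF2 itself, its inhibitor KEAP1, and the target genes NQO1, SLC7A11, GCLC, GCLM, TXNRD1, PRDX1 and HMOX1. They were taken as a named set, and every probe set annotated to exactly 1 of these symbols was read. All 9 genes were on the array, with 14 of its 22215 probe sets. HCT116, an established human colon cancer cell line, had been infected with a lentivirus (vector FUGW) so that it stably expressed either an shRNA against NFX1-91 (3 arrays) or a control shRNA against β-Galactosidase (3 arrays). Cells of both groups therefore carried a lentiviral hairpin, and no array came from cells without one. NFX1-91 is the shorter product of the NFX1 gene and is known as a transcriptional repressor. The labels do not say whether the infected cells were pools or clones.

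NRF2 is a basic leucine zipper factor that pairs with small MAF proteins on antioxidant response elements in its target genes. In unstressed cells KEAP1 holds it to a CUL3 ubiquitin ligase and it is degraded; oxidants and electrophiles modify cysteines of KEAP1, and NRF2 then accumulates. Control of NRF2 is thus largely at the level of the protein, which arrays do not measure. Its targets make glutathione, recycle thioredoxin, reduce quinones and break down heme.

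Of the 14 probe sets 7 fell, 2 rose and 5 did not pass in cells with the NFX1-91 hairpin. The falls were those of NQO1 in 3 of 3 probe sets, SLC7A11 in 2 of 3 and GCLC in 2 of 2, and the rises were those of GCLM and PRDX1. The changes were small, from a log2 fold change of -0.57 for an NQO1 probe set to 0.36 for GCLM. NFE2L2, KEAP1, TXNRD1 and HMOX1 did not pass. The 2 subunits of glutamate-cysteine ligase, GCLC and GCLM, thus moved in opposite directions. A probe set passed when its Benjamini-Hochberg adjusted p from limma, over all 22215 probe sets, was under 0.05. By that rule 25.7% of all probe sets passed (12.0% higher and 13.7% lower). Of the probe sets brighter than the median, which 13 of the 14 were, 44.7% passed. Counted by gene, on each gene's brightest probe set, 5 of 9 passed (2 higher and 3 lower), or 55.6%, against 30.0% of 11963 genes (13.4% higher and 16.6% lower) and 47.4% of those brighter than the median probe set. The share of members called was thus near that of other bright genes.

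The starts of transcription of GCLM, GCLC and NQO1 are shown because these target genes changed, GCLM upward and the other two downward, and an antioxidant response element can lie there. The windows are RefSeq sequences on GRCh38.p14, each from 250 bases before to 50 bases after the start, on the strand of the gene. Capitals mark a match to the core TGACNNNGC on either strand. The table held 9 windows for 6 of the 9 genes; HMOX1, SLC7A11 and PRDX1 were not among them.
GCLM, chr1:93909381-93909680, minus strand: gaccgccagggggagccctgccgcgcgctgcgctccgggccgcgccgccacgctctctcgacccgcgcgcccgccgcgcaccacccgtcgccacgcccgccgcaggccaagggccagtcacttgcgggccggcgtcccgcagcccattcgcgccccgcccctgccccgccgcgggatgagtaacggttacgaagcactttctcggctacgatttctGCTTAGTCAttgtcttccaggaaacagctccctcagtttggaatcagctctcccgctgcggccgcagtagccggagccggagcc
GCLC, chr6:53545052-53545351, minus strand: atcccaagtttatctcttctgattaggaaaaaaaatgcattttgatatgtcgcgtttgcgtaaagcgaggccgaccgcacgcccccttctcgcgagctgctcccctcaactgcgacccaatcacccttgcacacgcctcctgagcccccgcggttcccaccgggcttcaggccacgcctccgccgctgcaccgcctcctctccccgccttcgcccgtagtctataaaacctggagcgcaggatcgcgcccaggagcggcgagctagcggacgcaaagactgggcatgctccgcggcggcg
NQO1, chr16:69726511-69726810, minus strand: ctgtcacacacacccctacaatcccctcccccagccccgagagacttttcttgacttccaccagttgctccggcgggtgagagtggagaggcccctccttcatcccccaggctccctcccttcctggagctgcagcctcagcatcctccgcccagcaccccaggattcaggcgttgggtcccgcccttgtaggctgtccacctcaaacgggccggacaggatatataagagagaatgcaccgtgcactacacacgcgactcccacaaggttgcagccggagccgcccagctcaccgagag

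GCLM held 1 match, TGACTAAGC on the opposite strand, which begins 34 bases before the start. The GCLC and NQO1 windows held 0 matches. At least 1 match was found in 13.3% of the 35116 RefSeq windows, and in 4 of the 9 member windows, those of GCLM, both starts of TXNRD1 and 1 of 2 starts of KEAP1. Of these genes TXNRD1 and KEAP1 did not pass. A match is a stretch of letters and not a tested binding site, and elements further upstream lie outside these windows.

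Signals below are the deposited values with each array multiplied to a mean of 500. They are compared between groups for 1 probe set at a time, since the brightness of different probe sets does not order transcripts. Fold changes are on the log2(signal + 16) scale and stand for NFX1-91 shRNA minus control. With 3 arrays in a group the number of arrays limits the precision. No label says that the arrays of a group stand for independent cultures; p-values reflect how far these arrays spread, which may be technical error alone. A bulk array cannot tell fewer cells expressing a gene from less RNA in each cell.

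Pearson correlations of log2 signal lay between 0.992 and 0.995 for arrays of the same group, and between 0.983 and 0.985 for arrays of different groups. Weights that limma estimated from how far each array lay from its group were uneven, at 0.739, 2.46 and 0.640 for NFX1-91 shRNA arrays 1 to 3 and 0.457, 1.99 and 0.946 for control arrays 1 to 3. The fit reported here gave all arrays the same weight. Epithelial markers EPCAM (mean signal 3918 in NFX1-91 shRNA and 4350.0 in control arrays) and KRT19 (5748 in NFX1-91 shRNA and 5570.2 in control arrays) were bright, whereas VIL1 lay below the offset of 16 (3.91 in NFX1-91 shRNA and 5.01 in control arrays). Of 9 epithelial markers 2 were higher, KRT18 by 0.54 (adjusted p = 5.61e-05) and KRT8 by 0.35 (adjusted p = 0.000116), and 2 lower, CDH1 at -0.50 (adjusted p = 0.000314) and EPCAM at -0.15 (adjusted p = 0.00967). That is 44.4% called, against 30.0% of all genes and 47.4% of bright ones. KRT18 averaged 10739 in NFX1-91 shRNA and 7403 in control arrays, and KRT8 averaged 7065 in NFX1-91 shRNA and 5556 in control arrays. The summed signal of the 9 markers ranged from 29050.2 to 29301 in NFX1-91 shRNA arrays and from 24511 to 25289 in control arrays. By their brightest probe sets, none of 8 markers of blood, stromal and endothelial cells passed the limma test (0 higher and 0 lower, and 1 at an unadjusted p under 0.05). The summed signal of these probe sets ranged from 339.7 to 400.2 in NFX1-91 shRNA arrays and from 308 to 382 in control arrays. A dimmer probe set of the stromal marker COL1A1 (202310_s_at) did rise, by 0.68 (adjusted p = 0.00236 by limma). It averaged 114 in NFX1-91 shRNA and 65.3 in control arrays. The brightest COL1A1 probe set gave 0.03 (adjusted p = 0.898 by limma). Of 3 NFX1 probe sets the dimmest averaged 7.42 in NFX1-91 shRNA arrays and 19.6 in control arrays. It fell (adjusted p = 0.0137), but the NFX1-91 shRNA values lie below the offset of 16, which largely sets its log2 fold change of -0.60. The other two gave -0.13 (adjusted p = 0.400) and -0.06 (adjusted p = 0.775). Which splice form each of them reads was not tested, so the hairpin's effect on NFX1-91 is not settled by these probe sets.

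**Figure D1:**
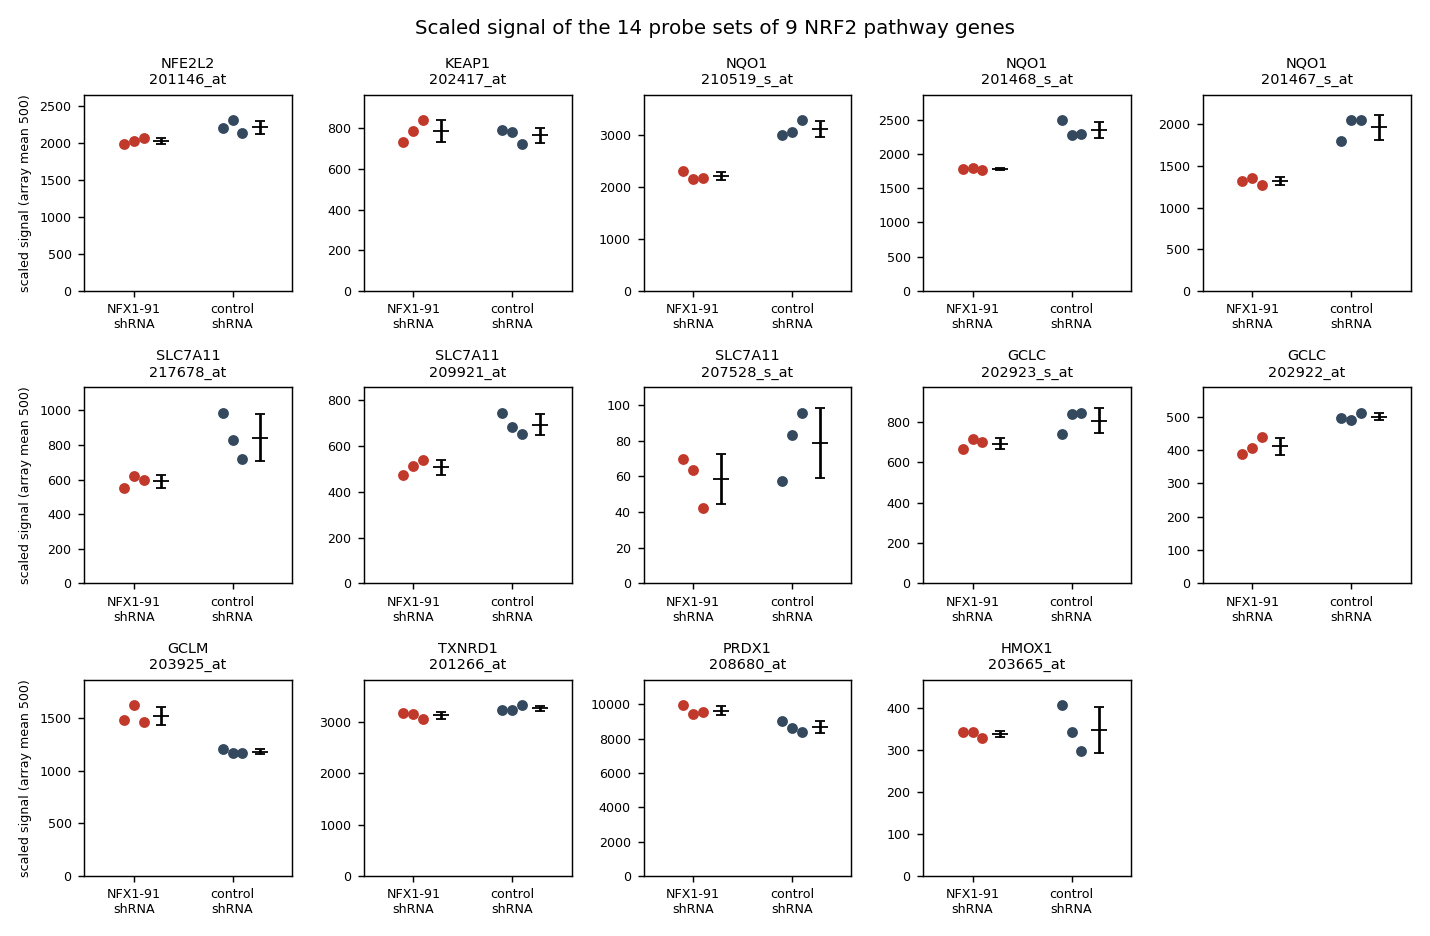
Scaled signal (linear axes from 0, array mean 500) of each of the 14 probe sets on 3 NFX1-91 shRNA arrays (red, left) and 3 control shRNA arrays (blue, right), with the mean and SD beside the points. NQO1 is lower and GCLM higher on every NFX1-91 shRNA array, while the groups overlap for KEAP1, HMOX1 and the dimmest SLC7A11 probe set.

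The regulators of the response came first. NFE2L2 (201146_at) had a signal of 1995, 2037 and 2072 in NFX1-91 shRNA arrays, against 2209, 2311 and 2135 in control arrays. Every NFX1-91 shRNA array was below every control array, but the gap was small beside the spread. The log2 fold change was -0.12 (standard error 0.042, 95% interval -0.22 to -0.03), and it did not pass (adjusted p = 0.0640). It passed where dim probe sets were left out (adjusted p = 0.0442) and with array weights (0.0165), and its adjusted p over all alternatives ran from 0.0165 to 0.241.

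KEAP1 (202417_at), the adaptor that presents NRF2 for degradation, read 735, 789 and 839.8 in NFX1-91 shRNA arrays, against 793, 783 and 723 in control arrays. The ranges of the 2 groups overlapped. Its log2 fold change was 0.04 (standard error 0.065, adjusted p = 0.746), with a 95% interval of -0.11 to 0.19.

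Among the targets, NQO1 had the smallest adjusted p. It encodes a flavoprotein of the cytosol that reduces quinones with NADH or NADPH. Its brightest probe set (210519_s_at) had a signal of 2309, 2160.0 and 2178 in NFX1-91 shRNA arrays, against 3006, 3057 and 3285 in control arrays. The groups lay well apart, and the log2 fold change was -0.49 (standard error 0.046, adjusted p = 0.000116), a 1.40-fold fall. The next (201468_s_at) averaged 1778 ± 15.1 in NFX1-91 shRNA arrays and 2353 ± 117 in control arrays (SD, n = 3 each), a log2 fold change of -0.40 (adjusted p = 0.000259 by limma). The dimmest (201467_s_at) averaged 1316 ± 46.8 in NFX1-91 shRNA arrays and 1962 ± 146 in control arrays (SD, n = 3 each), a log2 fold change of -0.57 (adjusted p = 0.000194 by limma). The 95% intervals of the 3 probe sets overlapped one another. Across all alternatives other than a minimum fold of 1.5, the highest adjusted p of the 3 was 0.00813.

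SLC7A11 is the light chain of the cystine and glutamate exchanger, which brings in the cystine used to make glutathione. Its brightest probe set (217678_at) read 549, 619 and 599 in NFX1-91 shRNA arrays, against 986, 826 and 716 in control arrays. The control arrays were widely spread, yet the lowest of them was above every NFX1-91 shRNA array. The log2 fold change was -0.50 (standard error 0.106, adjusted p = 0.00857). A tighter probe set (209921_at) read 473, 511 and 538 in NFX1-91 shRNA arrays, against 745, 682 and 654 in control arrays. Its log2 fold change was -0.44 (standard error 0.071, adjusted p = 0.00207). The third (207528_s_at) was dim, at percentile 46.9 of brightness, and read 69.5, 63.6 and 42.3 in NFX1-91 shRNA arrays, against 57.4, 83.0 and 95.6 in control arrays. There the groups overlapped, and its log2 fold change of -0.34 had a wide interval, from -0.79 to 0.11 (adjusted p = 0.262).

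GCLC is the catalytic subunit of glutamate-cysteine ligase, the first and rate-limiting enzyme of glutathione synthesis, and GCLM is its modifier subunit, which raises the enzyme's affinity for glutamate. The brighter GCLC probe set (202923_s_at) read 663, 715 and 699 in NFX1-91 shRNA arrays, against 738, 838 and 845 in control arrays. Its log2 fold change of -0.21 (standard error 0.066, adjusted p = 0.0434) was close to the threshold. The other (202922_at) read 388, 406 and 437 in NFX1-91 shRNA arrays, against 495, 491 and 511 in control arrays, with a log2 fold change of -0.27 (standard error 0.064, adjusted p = 0.0132).

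The fall of the brighter GCLC probe set was the least firm call among the members. It did not pass after quantile normalization (adjusted p = 0.0572) or median centring (0.0550), without a variance trend (0.113), or with 1 array left out in 5 of 6 cases. The exception was control array 1. Without control array 2 or 3 its adjusted p was 0.158 and 0.141, and without NFX1-91 shRNA array 1, 2 or 3 it was 0.133, 0.0923 and 0.0903. The other GCLC probe set lost its call only without NFX1-91 shRNA array 2 (adjusted p = 0.0638) among the arrays left out.

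GCLM (203925_at) read 1482, 1620.1 and 1458 in NFX1-91 shRNA arrays, against 1205, 1166 and 1169 in control arrays. The lowest NFX1-91 shRNA array stood above the highest control array, and the log2 fold change was 0.36 (standard error 0.051, adjusted p = 0.00101), a 1.28-fold rise. Taken within each array, the signal of GCLM relative to that of the brighter GCLC probe set was higher in the NFX1-91 shRNA group by 0.57 on the log2 scale (SD 0.0634 between NFX1-91 shRNA arrays and 0.133 between control arrays, n = 3 each). The exact two-sided permutation p was 0.1, the smallest that 3 against 3 arrays allow. GCLM was higher and this GCLC probe set lower on every NFX1-91 shRNA array. That p was therefore fixed beforehand and adds nothing to the separate changes. Over 11 alternatives the difference ran from 0.53 to 0.65, though median centring, among them, cannot alter a difference within an array. The pair was compared after the opposite directions had been seen.

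TXNRD1 (201266_at), the cytosolic selenoenzyme that reduces thioredoxin, read 3176, 3163 and 3055 in NFX1-91 shRNA arrays, against 3238, 3245 and 3327 in control arrays. The groups did not overlap, but the log2 fold change of -0.06 did not pass (standard error 0.034, adjusted p = 0.236), and its 95% interval reached from -0.14 to 0.01. Groups that do not overlap were common on these arrays: they were separate for 39.0% of all probe sets and 11 of the 14 member probe sets, and for 43.5% of genes and 7 of the 9 members by their brightest probe sets.

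PRDX1 (208680_at), a peroxiredoxin that uses thioredoxin to reduce hydrogen peroxide, read 9947, 9430.0 and 9536 in NFX1-91 shRNA arrays, against 9045, 8629.5 and 8371 in control arrays. Its log2 fold change was 0.15 (standard error 0.036, adjusted p = 0.0146), a 1.11-fold rise. The call was lost without a variance trend (adjusted p = 0.165). It was also lost without control array 2 (0.0607), without control array 3 (0.0524) and without NFX1-91 shRNA array 1 (0.0634).

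HMOX1 (203665_at), the inducible heme oxygenase, is among the targets most responsive to oxidative stress. It read 343, 343 and 329.6 in NFX1-91 shRNA arrays, against 407, 343 and 297 in control arrays. The control arrays spanned the whole range of the other group. Its log2 fold change was -0.03 (standard error 0.105, adjusted p = 0.879), with a 95% interval of -0.27 to 0.21, so changes within those bounds are not excluded. Without control array 1, the brightest, the value was 0.08 (adjusted p = 0.527).

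**Figure D2:**
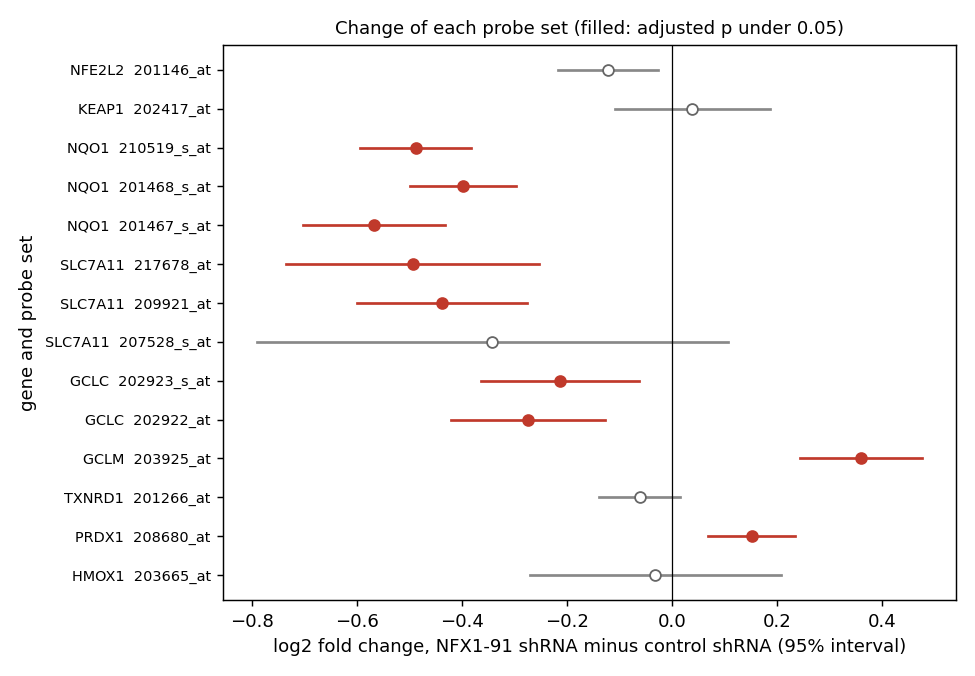
Log2 fold change (NFX1-91 shRNA minus control shRNA) of each of the 14 probe sets as points, with 95% intervals from limma as lines; filled red points passed an adjusted p of 0.05. NQO1, SLC7A11 and GCLC lie left of 0 and GCLM and PRDX1 right of it, and no point lies beyond -0.57 or 0.36.

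The proteins that control NRF2 or share its binding sites were read as a list of 18 genes, 16 of them measured. Of these 5 rose, 4 fell and 7 did not pass, or 56.2% called, against 30.0% of all genes and 47.4% of those brighter than the median probe set, as 15 of the 16 were. Their median log2 fold change was 0.02, against 0.0036 for all genes. With quantile normalization or median centring the split was 6 higher and 3 lower. Averaging the probe sets of each gene gave 4 higher and 2 lower, and a fit without a variance trend 3 and 3. NFE2L3, a relative of NRF2, read 384, 401 and 379 in NFX1-91 shRNA arrays, against 278, 258 and 282 in control arrays (log2 fold change 0.48, standard error 0.068, adjusted p = 0.000907). BACH1, a repressor that competes with NRF2 for its elements and is inactivated by heme, read 381, 413 and 438 in NFX1-91 shRNA arrays, against 332, 305 and 292 in control arrays (log2 fold change 0.39, adjusted p = 0.00600). Both factors were thus higher on every NFX1-91 shRNA array.

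SQSTM1, an autophagy receptor that binds KEAP1, rose by 0.23 (adjusted p = 0.00128). RBX1, the RING subunit of the CUL3 ligase, rose by 0.20 (adjusted p = 0.00402), and the kinase GSK3B, which marks NRF2 for degradation independently of KEAP1, rose by 0.25 (adjusted p = 0.0418). BTRC, the ubiquitin ligase adaptor that recognises NRF2 marked by GSK3B, fell by 0.55 (adjusted p = 0.00491). DPP3, a peptidase that binds KEAP1, fell by 0.50 (adjusted p = 0.00679), the coactivator CREBBP by 0.42 (adjusted p = 0.00924) and the nuclear receptor RXRA by 0.24 (adjusted p = 0.0476). Factors known to restrain NRF2 were thus found among the rises (such as BACH1, RBX1 and GSK3B) and among the falls (such as BTRC). FBXW11, also in this list, did not pass (-0.02, adjusted p = 0.879 by limma). The small MAF partners MAFF (0.06, adjusted p = 0.776) and MAFG (-0.01, adjusted p = 0.943) did not pass. Of the 9 calls 7 held without any 1 array; RXRA lost its call with each array left out (highest adjusted p = 0.135) and GSK3B with each but control array 3 (highest 0.154). CUL3 depended on the probe set: the brightest gave 0.11 (adjusted p = 0.0531) and a dimmer one -0.38 (adjusted p = 0.0183). RXRA also did: a dimmer probe set gave 0.24 (adjusted p = 0.104), with groups that did not overlap, against the fall in the brightest.

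Further targets of NRF2 were read as a list of 29 genes, 24 of them measured. Of these 4 rose, 2 fell and 18 did not pass, so that 25.0% were called, below the 30.0% of all genes and the 47.4% of bright ones; 14 of the 24 were brighter than the median probe set. The median log2 fold change was -0.0007. Enzymes of the pentose phosphate route did not pass. TKT gave -0.06 (adjusted p = 0.189), PGD -0.01 (adjusted p = 0.961) and TALDO1 0.16 (adjusted p = 0.0681). Malic enzyme ME1, a source of NADPH, rose, with a signal of 1497, 1546 and 1374 in NFX1-91 shRNA arrays, against 1026, 1067 and 1058 in control arrays (log2 fold change 0.48, standard error 0.053, adjusted p = 0.000265).

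The aldo-keto reductases AKR1B10 (log2 fold change 0.83, adjusted p = 0.00112) and AKR1C3 (0.63, adjusted p = 0.0216) rose. Both were dim: AKR1B10 read 53.8, 52.3 and 59.8 in NFX1-91 shRNA arrays, against 25.2, 22.2 and 25.1 in control arrays. Members of this family are alike in sequence, and how far their probe sets cross-read was not tested. The drug exporter ABCC1 rose by 0.26 (adjusted p = 0.0129). OSGIN1 fell by 0.60 (adjusted p = 0.00397), with 63.5, 57.8 and 62.2 in NFX1-91 shRNA arrays, against 109, 103 and 91.6 in control arrays. UGDH, which makes the sugar donor for glucuronidation, fell by 0.48 (adjusted p = 0.000488). Ferritin light chain FTL (0.02, adjusted p = 0.765), thioredoxin TXN (0.06, adjusted p = 0.187) and glutathione reductase GSR (0.06, adjusted p = 0.910) did not pass. Of the 6 calls 4 held without any 1 array; ABCC1 lost its call without control array 2 (adjusted p = 0.0589), and AKR1C3 without control array 1 or NFX1-91 shRNA array 1 or 3 (highest adjusted p = 0.0784).

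**Figure D3:**
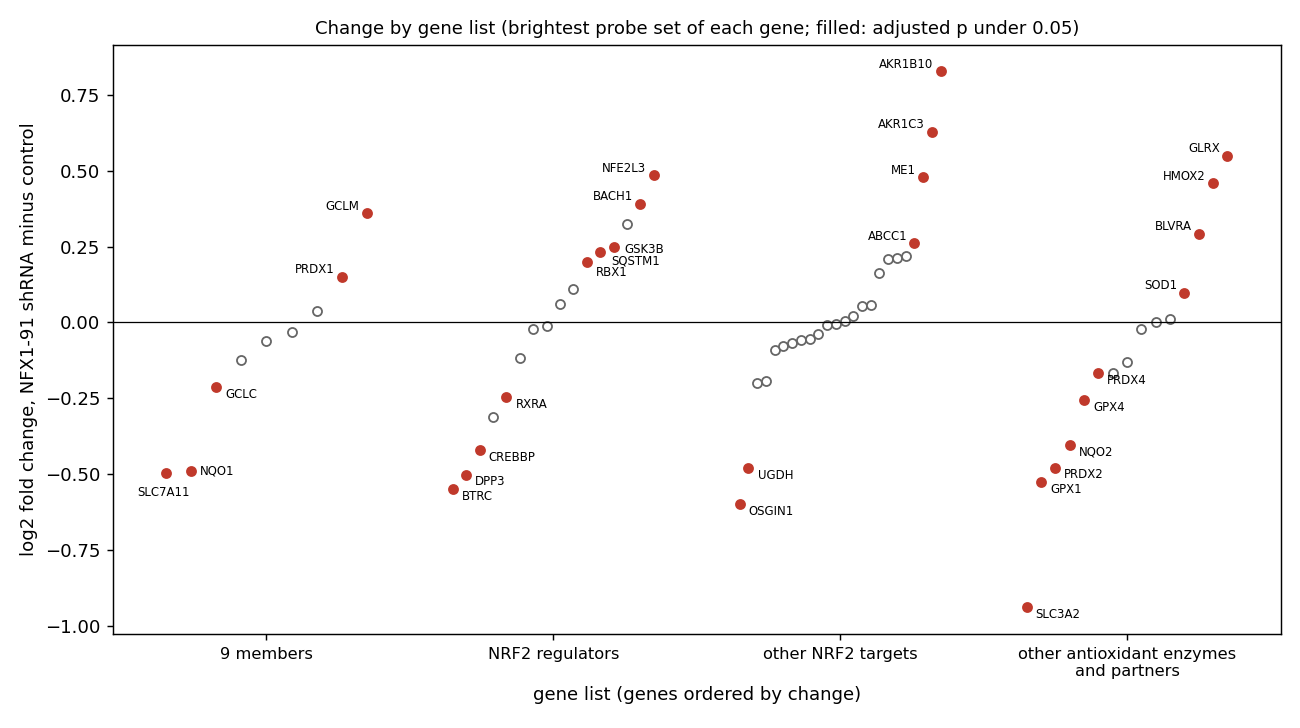
Log2 fold change (NFX1-91 shRNA minus control) of each measured gene, by its brightest probe set, in the 9 members and 3 further lists, with genes ordered by change along the horizontal axis; filled red points passed an adjusted p of 0.05. Each list has called genes on both sides of 0, and the lowest point is SLC3A2 at -0.94.

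Partners and relatives of the members, with other antioxidant enzymes, made a list of 18 genes, 15 of them measured. Of these 6 fell, 4 rose and 5 did not pass, or 66.7% called, against 30.0% of all genes and 47.4% of those brighter than the median probe set, as all 15 were. The median log2 fold change was -0.13. SLC3A2, the heavy chain that carries SLC7A11 to the cell surface and also serves other amino acid transporters, had 1050.3, 1062 and 1016 in NFX1-91 shRNA arrays, against 1967, 2160.1 and 1921 in control arrays. This was the largest change in the 4 lists (log2 fold change -0.94, standard error 0.053, adjusted p = 1.02e-05). By the brightest probe set of each gene, the RNA of both chains of the cystine exchanger was therefore lower. NQO2, the paralogue of NQO1, read 561, 578 and 606 in NFX1-91 shRNA arrays, against 787, 752 and 783 in control arrays (log2 fold change -0.40, adjusted p = 0.000717).

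HMOX2, the constitutive heme oxygenase, rose while HMOX1 did not pass: it read 1053, 1111 and 1057 in NFX1-91 shRNA arrays, against 821, 765 and 746 in control arrays (log2 fold change 0.46, adjusted p = 0.000352). BLVRA, which reduces the biliverdin that heme oxygenases release, rose by 0.29 (adjusted p = 0.00793). Whether HMOX1 and HMOX2 differed in their change was not tested. The peroxiredoxins went different ways. PRDX2 fell by 0.48 (adjusted p = 0.000313) and PRDX4, of the endoplasmic reticulum, by 0.17 (adjusted p = 0.0165), against the rise of PRDX1. The mitochondrial PRDX3 gave 0.0026 (adjusted p = 0.975) and PRDX6 -0.02 (adjusted p = 0.724).

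Both measured glutathione peroxidases of this list fell, GPX1 by 0.53 (adjusted p = 2.23e-05) and the lipid peroxidase GPX4 by 0.26 (adjusted p = 0.000771). Glutaredoxin GLRX rose by 0.55 (adjusted p = 0.000108) and superoxide dismutase SOD1 by 0.10 (adjusted p = 0.0364). Glutathione synthetase GSS, the step after glutamate-cysteine ligase, gave -0.13 (adjusted p = 0.108), and catalase CAT 0.01 (adjusted p = 0.913). Of the 10 calls in this list 7 held without any 1 array. SOD1 lost its call with each array left out (highest adjusted p = 0.111), PRDX4 without control array 2 or NFX1-91 shRNA array 1 or 2 (highest 0.0600), and BLVRA without NFX1-91 shRNA array 2 (0.0504).

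**Figure D4:**
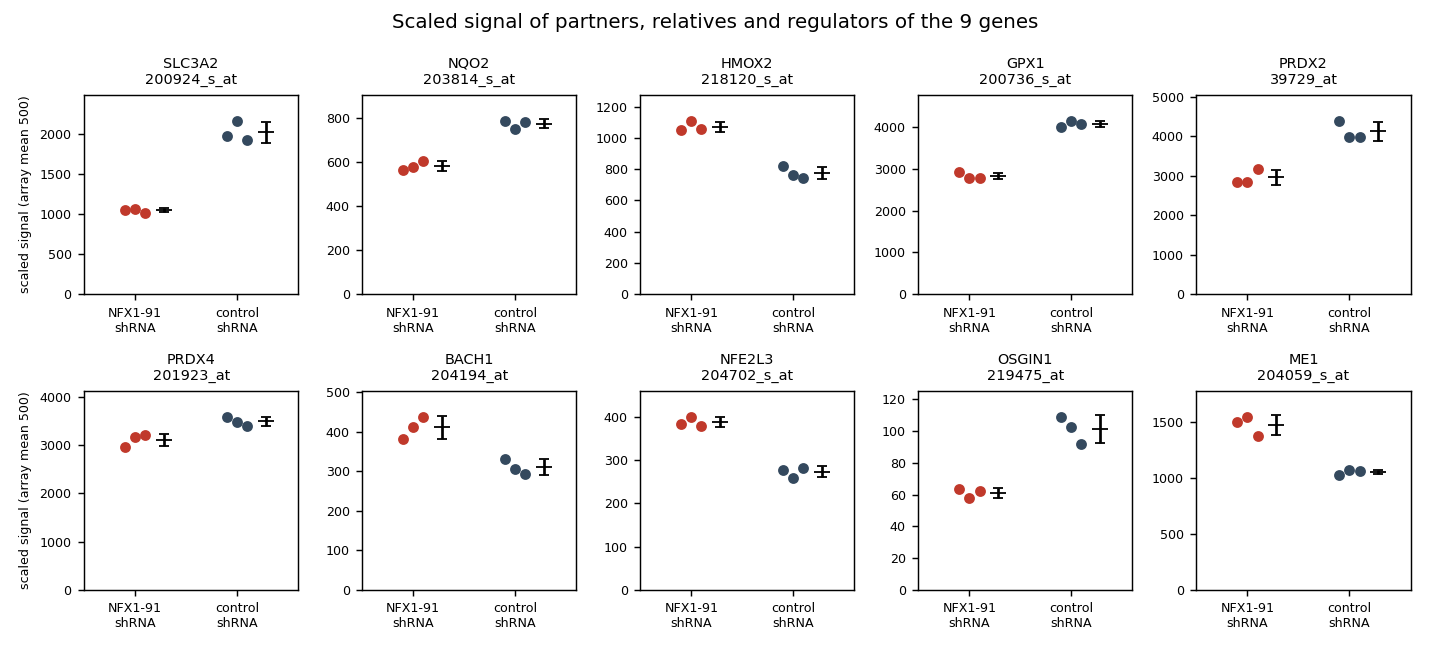
Scaled signal (linear axes from 0, array mean 500) of 10 partners, relatives, regulators and further targets on 3 NFX1-91 shRNA arrays (red, left) and 3 control shRNA arrays (blue, right), with the mean and SD beside the points. All were picked from listed genes that passed, so the lack of overlap is no separate result. The groups do not overlap in any panel; SLC3A2, NQO2, GPX1, PRDX2, PRDX4 and OSGIN1 are lower and HMOX2, BACH1, NFE2L3 and ME1 higher in NFX1-91 shRNA arrays.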

How the data were processed

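Total RNA of HCT116 cells was biotin-labelled and hybridised to Affymetrix arrays, per the labels' protocols. The deposited table holds linear intensity values that sum to 1 on each array; probe summary and scaling are not given in the sources used here. Each array was multiplied to a mean of 500 and log2(signal + 16) was taken. The platform annotation named 19064 probe sets with 1 gene, 1043 with several and 2108 with none, and 0 probe sets of several genes included a member. The symbols of 14 of 14 member probe sets matched RefSeq by gene identifier.

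Groups, taken from sample titles, were compared over all 22215 probe sets by linear models in limma 3.58.1 under R 4.3.3 (prior variance following mean signal, no pairing, both directions), Benjamini-Hochberg adjusted, with a threshold of 0.05. No genes were filtered. A gene in a list was read by its brightest single-gene probe set. Motifs and figures used Python 3.11.15 and matplotlib 3.10.9. The fit was tested on simulated data.

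The members, lists and settings were chosen with earlier results of these data known. The rule for named genes took every member, listed genes that passed and NFX1. It added the 3 probe sets most like the member with the smallest adjusted p. Up to 3 others per list by size of change were allowed, but most of these are not described above. The largest not passing were NFE2 among regulators (0.33, adjusted p = 0.228 by limma) and ALDH3A1 among other targets (0.22, adjusted p = 0.403 by limma). Among further antioxidant genes it was TXNRD2 (-0.17, adjusted p = 0.412 by limma). The other listed genes that are named and did not pass were chosen after their values were seen. So were the second CUL3 and RXRA probe sets, the dimmer COL1A1 probe set and the marker genes with values. Tried beside this were quantile normalization or median centring, omission of the dimmest 40% of probe sets, an offset of 1, of 64 or none, a prior without trend or a robust one, weights for arrays, the replicate number as a block, omission of each array in turn, a threshold of 0.01 or a minimum fold of 1.5, and averaging the probe sets of each gene.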

Additional observations from a re-analysis of the deposited data

How the results depend on the processing

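Over 18 alternatives for each of the 14 member probe sets, direction and call were kept in 220 of 252 values. Of the rest 25 lost a call, 2 gained one and 5 changed sign, all 5 in probe sets that did not pass. Only the 9 called probe sets could lose a call. The threshold of 0.01 and the minimum fold used the main fit, so neither could change a sign. HMOX1 turned to 0.0238 with quantile normalization, 0.0135 with array weights and 0.0802 without control array 1 (range with 1 array left out, -0.137 to 0.0802). KEAP1 turned below 0 without control array 3 and without NFX1-91 shRNA array 3 (range with 1 array left out, -0.00863 to 0.0861). A minimum fold of 1.5 accounts for 9 of the 25 lost calls, since it left 0 of 14 probe sets and 0 of 9 genes called, with 0 regulators, 3 other targets, 1 further antioxidant gene and 1720 probe sets of the whole table. At an adjusted p of 0.01, 3567 probe sets and 3 member genes were called, and without a variance trend 3 member genes. Leaving out 1 array gave 3 to 5 member genes (3 without control array 2, control array 3 or NFX1-91 shRNA array 1), 7 to 9 member probe sets, 7 to 8 regulators, 5 to 8 other targets, 7 to 9 further antioxidant genes and 3856 to 5962 probe sets in all. Whether the replicate numbers pair the samples is not settled by so few arrays. Same-numbered arrays deviated together with correlations of -0.17, 0.24 and -0.24, and 2 of 6 arrays correlated best with their own number. Averaging the probe sets of each gene gave 6 member genes, 6 regulators, 6 other targets and 11 further antioxidant genes, and array weights gave 10 member probe sets and 7650 probe sets in all. With the replicate block 9 member probe sets, 5 member genes and 4914 probe sets in all were called. Dim probe sets limit the reading: 24.1% to 25.9% of an array lay below the offset, and the smallest change detected among the members was 0.15.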

Other observations

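The probe sets of other genes with the pattern most like that of NQO1 (210519_s_at) were looked for by the distance between log2 values over the 6 arrays, each centred on its own mean. Only single-gene probe sets brighter than the median probe set were searched. The nearest of these was a probe set (214794_at) of PA2G4, a growth-regulating RNA-binding protein (distance 0.0599). It read 1162, 1121 and 1101 in NFX1-91 shRNA arrays, against 1538, 1506 and 1642 in control arrays. It is not the brightest probe set of PA2G4, which is not described here. PLD3, a nuclease of lysosomes, followed (0.0629), and CHMP1B, a subunit of the membrane-remodelling ESCRT machinery (0.0728), came next. With 6 arrays in 2 groups such likeness mostly means a fall of like size, -0.46 for PA2G4, -0.49 for PLD3 and -0.53 for CHMP1B, against -0.49 for NQO1.

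Where a listed gene had further probe sets, some moved as the brightest did and others did not. ME1 gave 0.48 and 0.52, HMOX2 0.46 and 0.57, GLRX 0.55 and 0.63, and PRDX2 -0.48 and -0.55 for its brightest and next probe sets, all of which passed. BTRC gave -0.55 and -0.80 for its brighter ones, but 0.13 for its dimmest, which did not pass (adjusted p = 0.536 by limma). RXRA gave -0.24 for its brightest probe set, which passed, and 0.24 for the other, which did not (adjusted p = 0.104 by limma), and the groups did not overlap for either. For SQSTM1 the second probe set, at 144 in NFX1-91 shRNA arrays and 157 in control arrays, gave -0.12 (adjusted p = 0.468 by limma) against the rise of 0.23 in the brighter one.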
